A study of Mus musculus with 12 samples.

Results

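Serpins are a family of proteins with 1 common fold, named for the serine protease inhibitors among them. Their genes were taken here by symbol, as those whose platform symbol begins with Serpin followed by a clade letter from a to i and a digit, and each symbol was read by its probe set with the highest mean over the 12 arrays. That gave 40 serpins among 18194 genes, read by 56 probe sets, of which 12 symbols had more than 1. They were divided by where the protein is known to act. The first class held 12 serpins that the liver secretes into plasma, such as antithrombin and alpha1-antitrypsin. The remaining 28 were 9 other secreted serpins and relatives, the collagen chaperone Serpinh1 of the endoplasmic reticulum, and 18 clade B serpins, which mostly stay inside cells.

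Liver RNA was measured in 4 groups of 3 arrays, each array with RNA pooled from 3 animals of mixed SV129 and C57Bl/6 descent. The groups were LG2KO mice treated with tamoxifen and refed after a fast, control mice refed after a fast, LG2KO mice treated with tamoxifen and fasted, and fasted control mice. The labels do not spell out LG2KO, which is read here as loss of the hepatic glucose transporter Glut2 (gene Slc2a2), and the study asks what glucose sensing by the liver does for beta cells. Tamoxifen is named for LG2KO arrays only, so its effect and that of genotype cannot be told apart. No source used here gives the Cre driver, the tamoxifen dose, or the animals' sex and age. One label of the fasted LG2KO arrays calls them refed, against their title and diet, which were followed.

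An inhibitory serpin offers a protease an exposed loop as bait. When the loop is cut, the serpin changes shape and traps the protease in a permanent complex. The liver supplies most of the serpins of plasma, which restrain clotting, fibrinolysis, complement and the proteases of neutrophils. Some members inhibit nothing and carry hormones or fold other proteins instead. Clade B serpins protect cells from proteases released within them and are abundant in leukocytes and epithelia.

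Values are RMA log2 expression values, in which a difference of 1 is a doubling. Slc2a2 averaged 3.74 ± 0.09 in refed LG2KO livers and 10.96 ± 0.32 in refed control livers (SD, n = 3 pools each), and 3.90 ± 0.30 in fasted LG2KO livers and 10.64 ± 0.56 in fasted control livers. The LG2KO minus control difference was -7.21 ± 0.25 in refed livers (SE, limma, adjusted p = 2.26e-08) and -6.73 ± 0.25 in fasted livers (adjusted p = 5.21e-08). The 9 hepatocyte markers averaged 13.4 to 13.7 on every array. A pair of arrays stood apart, LG2KO fasted replicate 3 and control refed replicate 1, which lay at -31.4 and 37.1 on the second principal component while the others lay between -11.4 and 7.46. On control fasted replicate 3 the exocrine pancreas markers averaged 8.10, against at most 5.67 on the other arrays. On LG2KO refed replicate 2 the fat cell gene Adipoq was at 6.81, against at most 4.61 elsewhere. In bulk liver RNA fewer cells of a type and less RNA per cell cannot be told apart.

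Averaged over the other factor, 6 of the 40 serpins changed with refeeding and 1 with genotype. Averaged over genotype, Serpina9, Serpina12, Serpina4-ps1, Serpinh1 and Serpina10 rose in refed livers and Serpina3n fell (limma, adjusted p below 0.05 over all 18194 genes). That is 15% of the serpins, beside 13.6% of all genes tested, so the share of serpins that changed was near the background. Within LG2KO livers 3 serpins rose and none fell, which is 7.5% beside 7.05% of all genes (4.66% higher and 2.4% lower). Within control livers 5 rose and 1 fell, or 15% beside 6.46% (3.29% higher and 3.17% lower). The median refed minus fasted difference of the 40 was -0.01 averaged over genotype, and that of all genes was -0.005. Without the arrays that stand apart 6 serpins passed in LG2KO livers beside 17.5% of all genes, 8 in control livers beside 12.1%, and 10 averaged over genotype beside 25.2%.

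**Figure D1:**
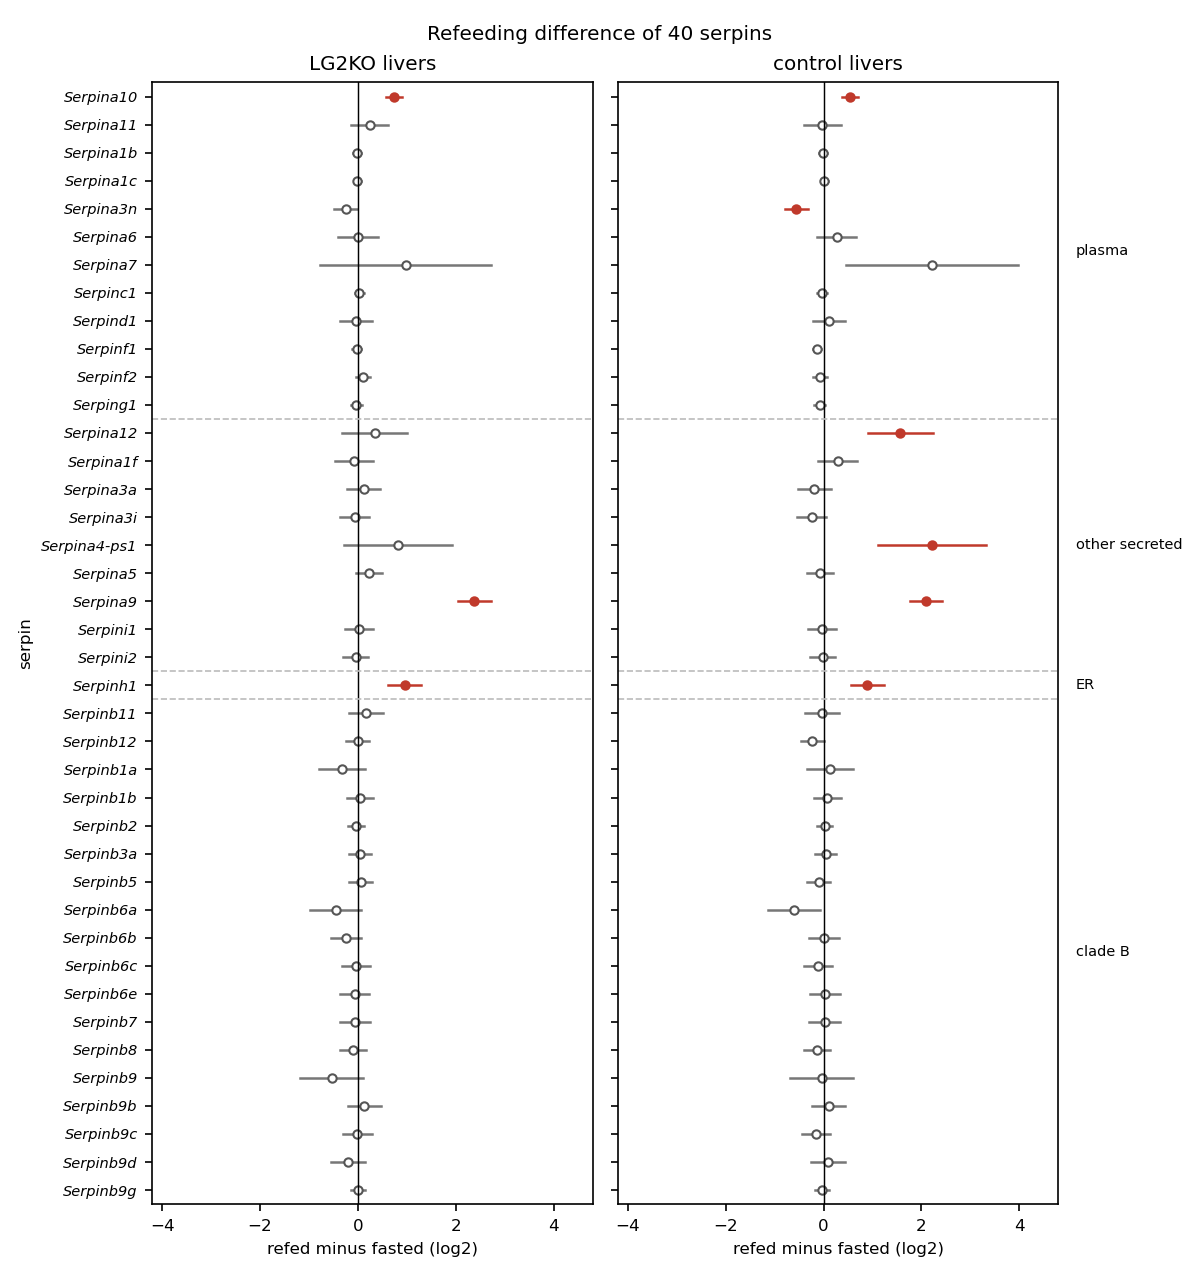
Refed minus fasted differences (log2, x axis) of the 40 serpins (rows, grouped by class) in LG2KO livers at left and control livers at right. Points are limma estimates from 3 arrays a group, lines are 95% confidence intervals, and filled red points passed at an adjusted p below 0.05. Most points lie at 0, and Serpina9, Serpina10 and Serpinh1 pass to the right of it in each panel.

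The probe sets used for Serpinc1, Serping1, Serpina1b and Serpina1c ranged over at most 0.194 across the 12 arrays, and none passed in any comparison. Probe sets that several Serpina1 genes share ranged more widely and are given further on. Serpinc1 encodes antithrombin, the chief inhibitor of thrombin. It read 13.66, 13.58 and 13.58 in refed LG2KO livers, 13.65, 13.57 and 13.58 in refed control livers, 13.56, 13.60 and 13.57 in fasted LG2KO livers, and 13.67, 13.64 and 13.58 in fasted control livers. All 4 groups overlapped. The refed minus fasted difference averaged over genotype was -0.001 with a 95% interval of -0.07 to 0.06, and the LG2KO minus control difference averaged over feeding was -0.02 with an interval of -0.09 to 0.04. Serping1, the C1 inhibitor that holds back complement and contact activation, read 13.29, 13.25 and 13.41 in refed LG2KO livers, 13.28, 13.30 and 13.22 in refed control livers, 13.31, 13.32 and 13.41 in fasted LG2KO livers, and 13.35, 13.33 and 13.34 in fasted control livers. Its refed minus fasted difference in control livers, where the groups did not overlap, was -0.08 with a 95% interval of -0.19 to 0.03.

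Serpinf1, a non-inhibitory serpin known as PEDF that restrains blood vessel growth, had its lowest values in refed control livers. It read 13.26, 13.27 and 13.26 in refed LG2KO livers, 13.12, 13.18 and 13.16 in refed control livers, 13.29, 13.29 and 13.29 in fasted LG2KO livers, and 13.32, 13.30 and 13.25 in fasted control livers. The difference by feeding in control livers, -0.13 ± 0.04, did not pass (adjusted p = 0.072). On the same 12 arrays it passed with array weights and with the filter on dim genes. Without the arrays that stand apart it was -0.12 ± 0.04 and did not pass (adjusted p = 0.11).

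Serpina1b and Serpina1c, which encode forms of alpha1-antitrypsin, the plasma inhibitor of neutrophil elastase, varied least of all 40. Serpina1b read between 14.22 and 14.31 and Serpina1c between 14.27 and 14.34 over the 12 arrays. Their feeding differences averaged over genotype were -0.01 (95% interval -0.07 to 0.04) and 0.002 (-0.05 to 0.05). The highest value of any probe set on an array was 14.47 to 14.56, and the deposited values cannot show whether these probe sets had reached the scanner's ceiling. The Serpina1 genes of the mouse are near-identical copies, so probes for one may read the others. Serpina1a, Serpina1d and Serpina1e had no probe set of their own among those used.

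The inhibitors heparin cofactor II and antiplasmin did not pass either. Serpind1, which encodes the thrombin inhibitor heparin cofactor II, read 11.75, 11.72 and 11.52 in refed LG2KO livers, against 12.36, 11.84 and 11.86 in refed control livers. The ranges did not overlap, but the difference of -0.36 ± 0.15 (SE) did not pass (adjusted p = 0.49). The highest value, 12.36, was on control refed replicate 1, an array that stands apart. Without the arrays that stand apart the difference was -0.19 ± 0.08 (adjusted p = 0.47). Serpinf2, the main plasmin inhibitor, read 12.21, 12.15 and 12.31 in fasted LG2KO livers, against 12.52, 12.37 and 12.52 in fasted control livers. This difference of -0.25 ± 0.06 missed the threshold (adjusted p = 0.24), although the groups did not overlap.

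Serpina10 was the coagulation serpin that followed feeding. It encodes the protein Z-dependent inhibitor of clotting factor Xa. Refed LG2KO livers read 12.62, 12.70 and 12.84, refed control livers 12.64, 12.69 and 12.55, fasted LG2KO livers 11.93, 11.93 and 12.08, and fasted control livers 12.01, 12.06 and 12.20. Every refed array lay above every fasted array. Serpina10 rose with refeeding by 0.74 ± 0.08 in LG2KO livers (1.67-fold, adjusted p = 9.28e-05) and by 0.54 ± 0.08 in control livers (1.45-fold, adjusted p = 0.00092). The refeeding differences of the genotypes were not shown to differ (difference 0.20, 95% interval -0.03 to 0.43, adjusted p = 0.99).

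Serpina3n was the 1 serpin that fell with refeeding, and the 1 with a genotype call. It is a mouse counterpart of human alpha1-antichymotrypsin and inhibits proteases of neutrophils and cytotoxic cells. It read 12.42, 12.35 and 12.78 in refed LG2KO livers, 11.97, 11.99 and 12.02 in refed control livers, 12.65, 12.65 and 12.98 in fasted LG2KO livers, and 12.63, 12.47 and 12.54 in fasted control livers. The refed control arrays were the lowest 3 of the 12. In control livers Serpina3n fell with refeeding by 0.56 ± 0.11 (adjusted p = 0.0092), while in LG2KO livers the difference was -0.25 ± 0.11 (adjusted p = 0.26). The interaction, 0.31 with a 95% interval of -0.03 to 0.65, did not pass (adjusted p = 0.99).

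Averaged over feeding, Serpina3n rose by 0.37 ± 0.08 in LG2KO livers (1.29-fold, adjusted p = 0.049). In refed livers alone the difference was 0.52 ± 0.11 (adjusted p = 0.087), and in fasted livers 0.21 ± 0.11 (adjusted p = 1.0). The averaged call was lost without the arrays that stand apart (0.31, adjusted p = 0.082) and when any array but LG2KO refed replicate 2 was left out (adjusted p of 0.065 to 0.149). The highest LG2KO values, 12.78 on refed replicate 3 and 12.98 on fasted replicate 3, were on the arrays with the highest means of the 12 lymphocyte and neutrophil markers, 5.93 and 5.69, against at most 5.56 elsewhere. The neutrophil gene S100a8 read 7.90 and 7.47 there, against at most 6.79 elsewhere. The part of these markers in the Serpina3n result was not tested. Neighbouring Serpina3 copies are close in sequence and could share its probes, and Serpina3k, Serpina3m and Serpina3c were not analysed here.

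The hormone-binding serpins inhibit no protease. Serpina6 encodes corticosteroid-binding globulin, which carries glucocorticoids in blood. It read 11.90, 11.63 and 11.60 in refed LG2KO livers, 11.78, 11.79 and 11.64 in refed control livers, 12.11, 11.54 and 11.46 in fasted LG2KO livers, and 11.04, 11.66 and 11.71 in fasted control livers, with all groups overlapping. Its feeding difference averaged over genotype was 0.14 (95% interval -0.15 to 0.42). Serpina11, a little-studied member of the same cluster, read 11.77, 12.17 and 11.77 in refed LG2KO livers, against 11.57, 11.77 and 11.39 in refed control livers. To 2 decimals the highest control array equalled the lowest LG2KO array, and the difference of 0.32 ± 0.17 did not pass (adjusted p = 0.64).

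Serpina7 encodes thyroxine-binding globulin, and 1 array stood far above the rest. It read 3.14, 3.76 and 2.97 in refed LG2KO livers, 7.13, 2.79 and 3.32 in refed control livers, 2.21, 2.52 and 2.20 in fasted LG2KO livers, and 1.77, 2.19 and 2.61 in fasted control livers. Control refed replicate 1, an array that stands apart, exceeded every other array by more than 3 units, and each refed array lay above each fasted array. On 12 arrays the feeding difference averaged over genotype was 1.60 ± 0.57 (adjusted p = 0.094). Without the arrays that stand apart it was 0.89 ± 0.19 (adjusted p = 0.005). The mean of Serpina7 over the 12 arrays, 3.05, exceeded the means of only 7.68% of genes.

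Among the other secreted serpins, 3 neighbours on chromosome 12 were higher in refed livers. Serpina9, known in human as centerin of germinal centre B cells, had the largest feeding difference of the 40 averaged over genotype. It read 6.82, 6.89 and 6.30 in refed LG2KO livers, 6.31, 6.53 and 6.32 in refed control livers, 4.35, 4.21 and 4.29 in fasted LG2KO livers, and 4.19, 4.44 and 4.23 in fasted control livers. The lowest refed array lay well above the highest fasted array, in either genotype. Serpina9 rose by 2.38 ± 0.15 in LG2KO livers (5.22-fold, adjusted p = 3.93e-06) and by 2.10 ± 0.15 in control livers (4.28-fold, adjusted p = 7.59e-06). The B cell markers Cd79a and Cd79b read 5.19 to 5.60 and 6.01 to 6.30 in refed LG2KO livers, 5.17 to 5.48 and 5.87 to 6.11 in refed control livers, 5.01 to 5.40 and 5.56 to 5.90 in fasted LG2KO livers, and 5.28 to 5.39 and 5.65 to 5.95 in fasted control livers. The 12 lymphocyte and neutrophil markers averaged 5.25 to 5.93 in refed LG2KO livers, 5.23 to 5.36 in refed control livers, 5.08 to 5.69 in fasted LG2KO livers, and 5.20 to 5.44 in fasted control livers. Of these markers 1, the B cell gene Cd79b, rose and 0 fell averaged over genotype. For Cd79b each refed LG2KO array read above each fasted LG2KO array, while its control ranges and the Cd79a ranges overlapped. The part of the markers in the Serpina9 result was not tested.

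Serpina12 encodes vaspin, an adipokine that the liver also makes. It read 10.50, 10.85 and 10.80 in refed LG2KO livers, 10.73, 10.90 and 10.43 in refed control livers, 10.18, 10.49 and 10.46 in fasted LG2KO livers, and 10.05, 8.89 and 8.41 in fasted control livers. The 3 fasted control arrays were the lowest of the 12, and a pair of them lay more than 1 unit below the rest. In control livers Serpina12 rose with refeeding by 1.57 ± 0.31 (2.96-fold, adjusted p = 0.0083). The call was lost when these groups alone were fitted (adjusted p = 0.052). The lowest value, 8.41, was on control fasted replicate 3, the array with pancreas transcripts, and without that array the rise was 1.21 (adjusted p = 0.028). In LG2KO livers the difference was 0.34 ± 0.31 (adjusted p = 0.69), and the interaction of -1.22 (95% interval -2.17 to -0.28) did not pass (adjusted p = 0.91). In fasted livers LG2KO exceeded control by 1.26 ± 0.31, which did not pass (adjusted p = 0.19). A second, dimmer probe set of Serpina12 gave a refeeding difference of 0.61 ± 0.16 in control livers (adjusted p = 0.046 over all probe sets), and 0.15 ± 0.16 for LG2KO minus control in fasted livers. The array with raised Adipoq, LG2KO refed replicate 2, read 10.85 for Serpina12 beside 10.50 and 10.80 on the other arrays of its group.

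Serpina4-ps1 is the transcribed mouse pseudogene related to the kallistatin gene. It read 6.75, 7.54 and 7.74 in refed LG2KO livers, 9.62, 8.07 and 8.01 in refed control livers, 7.02, 7.01 and 5.55 in fasted LG2KO livers, and 5.91, 7.13 and 6.02 in fasted control livers. The refed control arrays were the highest of all, and the refed and fasted LG2KO arrays overlapped. Serpina4-ps1 rose by 2.21 ± 0.51 in control livers (4.64-fold, adjusted p = 0.020). In LG2KO livers the difference was 0.82 ± 0.51 (adjusted p = 0.47), and the interaction was -1.39 (95% interval -2.95 to 0.16, adjusted p = 0.99). The call in control livers was lost without control refed replicate 1 (1.68, adjusted p = 0.051) and without control fasted replicate 1 or 3 (adjusted p = 0.091 and 0.081). Without both arrays that stand apart the rise was 1.68 ± 0.34 (adjusted p = 0.008).

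**Figure D2:**
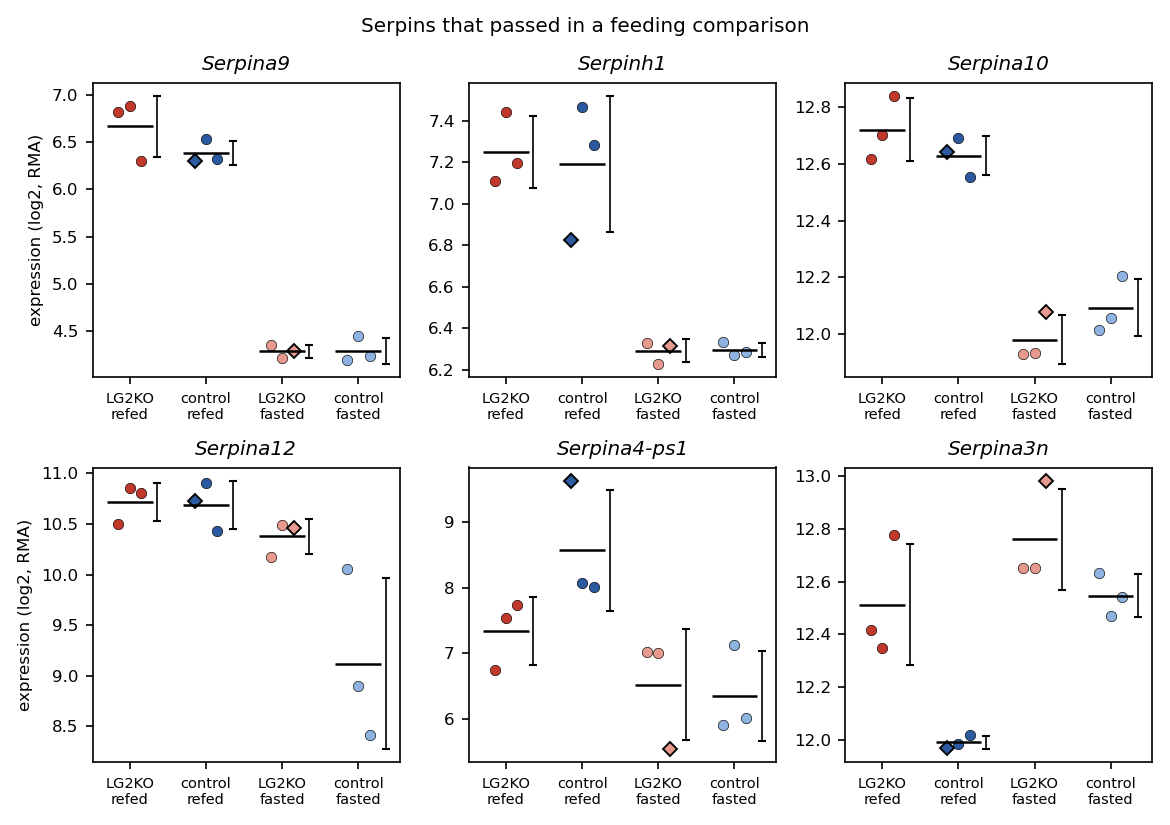
Expression (log2, RMA) of the 6 serpins that passed in a feeding comparison, with 1 point per array in the 4 groups of 3. Horizontal lines are group means, bars beside them are 1 SD, diamonds mark the arrays that stand apart, and each panel has its own axis. Serpina9, Serpinh1 and Serpina10 separate refed from fasted arrays completely, Serpina12 is lowest in fasted control livers, and Serpina3n is lowest in refed control livers.

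In the RefSeq annotation of the mouse genome (GRCm38.p6), 28 clade A genes and pseudogenes lie in a row on chromosome 12, of which 13 were measured. The other measured clade A gene, Serpina7, lies on the X chromosome. Serpina9, Serpina12 and Serpina4-ps1 hold the places 11, 12 and 13, with no other serpin between them. Averaged over genotype their refed minus fasted differences were 2.24, 0.96 and 1.52, and those of the serpins on either side, Serpina11 and Serpina5, were 0.11 and 0.07. The 2 other members of the row that passed, Serpina10 and Serpina3n, lie at its ends.

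**Figure D3:**
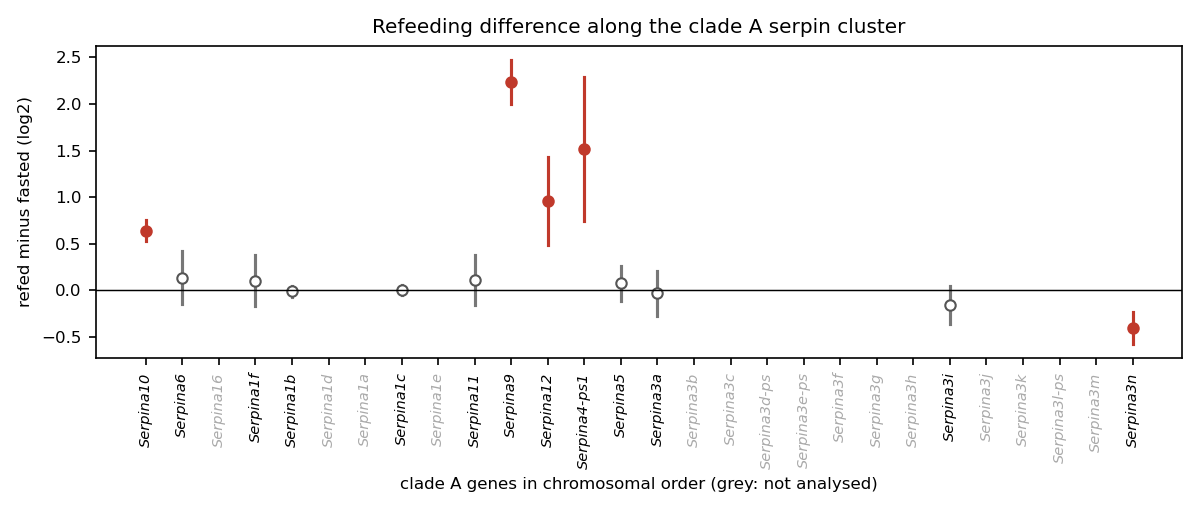
Refed minus fasted difference averaged over genotype (log2, y axis) for the 13 measured clade A genes of chromosome 12, placed by their order there (x axis, not to scale in bases). Points are limma estimates from 6 refed and 6 fasted arrays, lines are 95% confidence intervals, filled red points passed, and grey names were not analysed. The 3 neighbours Serpina9, Serpina12 and Serpina4-ps1 stand above 0 between Serpina11 and Serpina5, which lie at 0.11 and 0.07.

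Serpinh1, the endoplasmic reticulum chaperone of collagen known as heat shock protein Hsp47, rose with refeeding in both genotypes. It read 7.11, 7.44 and 7.20 in refed LG2KO livers, 6.83, 7.46 and 7.28 in refed control livers, 6.33, 6.23 and 6.31 in fasted LG2KO livers, and 6.33, 6.27 and 6.29 in fasted control livers. All refed arrays lay above all fasted arrays, with control refed replicate 1 the lowest of the refed. Serpinh1 rose by 0.96 ± 0.15 in LG2KO livers (1.94-fold, adjusted p = 0.0024) and by 0.89 ± 0.15 in control livers (1.86-fold, adjusted p = 0.0035). Averaged over genotype its second probe set rose by 1.40 ± 0.13 (adjusted p = 1.74e-05 over all probe sets). The 11 markers of stellate cells and fibroblasts, the main collagen-making cells of liver, averaged 7.64 to 7.72 in refed LG2KO livers, 7.45 to 7.87 in refed control livers, 7.23 to 7.91 in fasted LG2KO livers, and 7.21 to 7.70 in fasted control livers. Of these markers 1 rose and 1 fell averaged over genotype, and their part in the Serpinh1 result was not tested.

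Promoters of 34 of the 40 serpins were found in the RefSeq table (GRCm38.p6), as the 300 bases around each gene's start. They are shown for the 3 of the 6 called serpins that the table holds, because these genes changed with feeding, Serpina12 and Serpinh1 upward and Serpina3n downward. Capitals mark matches to any of 8 motifs searched on both strands.
Serpina12, chr12:104044394-104044693, minus strand: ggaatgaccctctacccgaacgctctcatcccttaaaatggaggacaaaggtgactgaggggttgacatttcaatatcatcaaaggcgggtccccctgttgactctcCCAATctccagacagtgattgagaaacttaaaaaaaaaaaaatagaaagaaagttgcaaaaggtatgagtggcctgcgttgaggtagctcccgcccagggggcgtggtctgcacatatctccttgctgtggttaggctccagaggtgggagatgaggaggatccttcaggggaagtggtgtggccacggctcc
Serpina3n, chr12:104406458-104406757, plus strand: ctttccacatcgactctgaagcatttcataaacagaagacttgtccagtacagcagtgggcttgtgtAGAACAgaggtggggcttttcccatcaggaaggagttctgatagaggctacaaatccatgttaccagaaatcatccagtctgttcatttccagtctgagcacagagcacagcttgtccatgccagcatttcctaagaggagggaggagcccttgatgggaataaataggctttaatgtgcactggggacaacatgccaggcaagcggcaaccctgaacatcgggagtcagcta
Serpinh1, chr7:99353190-99353489, minus strand: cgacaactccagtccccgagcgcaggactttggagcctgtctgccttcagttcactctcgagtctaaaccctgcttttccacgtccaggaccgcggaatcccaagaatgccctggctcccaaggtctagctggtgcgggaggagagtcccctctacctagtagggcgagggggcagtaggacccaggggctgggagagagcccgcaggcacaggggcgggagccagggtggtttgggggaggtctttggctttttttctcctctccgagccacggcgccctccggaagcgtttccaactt
The Serpina12 promoter held 1 match, the CCAAT box (CCAAT), which was in 37.4% of all 32851 promoters. The Serpina3n promoter held 1, on the minus strand, to the core of the glucocorticoid receptor site (TGTTCT), which was in 19.0% of all promoters. No other motif matched in the 3 windows. The motifs were the HNF1 core (GTTAAT, 7.1% of all promoters), the FOXO site (TGTTTAC, 3.65%), the STAT site (TTCNNNGAA, 8.3%), the heat shock element (0.603%), the E-box (CACGTG, 7.15%) and the TATA box (TATAAA, 13.6%), and none overlapped another match. Over the 34 serpins, 14 had a CCAAT box, 13 the glucocorticoid receptor core, 8 a TATA box, 6 a STAT site and 5 the HNF1 core, while none had the other 3. Some of these serpins had 2 promoters and were counted if either matched, while the shares of all promoters count each promoter. The serpin counts cannot be set directly against those shares.

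The remaining secreted serpins had no call on 12 arrays. Serpina5, the protein C inhibitor, read between 2.77 and 3.35, Serpini1, neuroserpin, between 3.48 and 3.92, and Serpini2, made in exocrine pancreas, between 2.77 and 3.22. On the array with pancreas transcripts Serpini2 read 2.93. Serpina3a and Serpina3i stayed within 4.96 to 5.49 and 4.93 to 5.58. Serpina1f, an epididymal relative of alpha1-antitrypsin, read between 2.65 and 3.38. Its mean of 2.87 exceeded the means of only 5.45% of genes. The Serpina1f feeding difference averaged over genotype was 0.10 ± 0.13 (adjusted p = 0.75). It was 0.30 ± 0.07 without the arrays that stand apart (adjusted p = 0.0072). In that fit the difference was 0.47 ± 0.10 in control livers (adjusted p = 0.0086). In LG2KO livers it was 0.13 ± 0.10 and did not pass (adjusted p = 0.39).

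None of the 18 clade B serpins passed in any of the 7 comparisons on 12 arrays in the fit with 1 mean per group (limma, at most 1 at an unadjusted p below 0.05 in each). Serpinb6a, which inhibits cathepsin G and other leukocyte proteases, read 7.67, 7.33 and 7.29 in refed LG2KO livers, 7.86, 7.26 and 7.04 in refed control livers, 8.17, 8.08 and 7.40 in fasted LG2KO livers, and 8.20, 7.69 and 8.07 in fasted control livers. The refed arrays were mostly lower, apart from control refed replicate 1, and LG2KO fasted replicate 3 was low among the fasted. Its feeding difference averaged over genotype was -0.53 ± 0.17 (adjusted p = 0.063). On the same 12 arrays it passed with array weights (-0.66, adjusted p = 0.0011), quantile normalization (adjusted p = 0.026), the filter on dim genes (adjusted p = 0.042) and the replicate block (adjusted p = 0.017). Without the arrays that stand apart it fell by 0.76 ± 0.11 (adjusted p = 0.00053).

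Serpinb9, the granzyme B inhibitor of lymphocytes and dendritic cells, showed the same dependence. It read 6.32, 6.01 and 5.82 in refed LG2KO livers, 6.75, 6.29 and 6.06 in refed control livers, 6.91, 6.96 and 5.87 in fasted LG2KO livers, and 6.11, 6.22 and 6.88 in fasted control livers. The difference by feeding averaged over genotype was -0.28 ± 0.21 on 12 arrays (adjusted p = 0.51). It fell by 0.56 ± 0.15 without the arrays that stand apart (adjusted p = 0.019). In that fit the difference was -0.89 ± 0.21 in LG2KO livers (adjusted p = 0.015). In control livers it was -0.23 ± 0.21 and did not pass (adjusted p = 0.59). With array weights on 12 arrays the difference averaged over genotype was -0.47 (adjusted p = 0.034). The second, dimmer probe set of Serpinb9 gave 0.06 ± 0.07 averaged over genotype on 12 arrays (adjusted p = 0.78 over all probe sets). The 12 macrophage markers averaged 9.29 to 9.66 in refed LG2KO livers, 9.27 to 9.35 in refed control livers, 9.05 to 9.36 in fasted LG2KO livers, and 9.21 to 9.72 in fasted control livers. Their part in the clade B values was not tested.

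**Figure D4:**
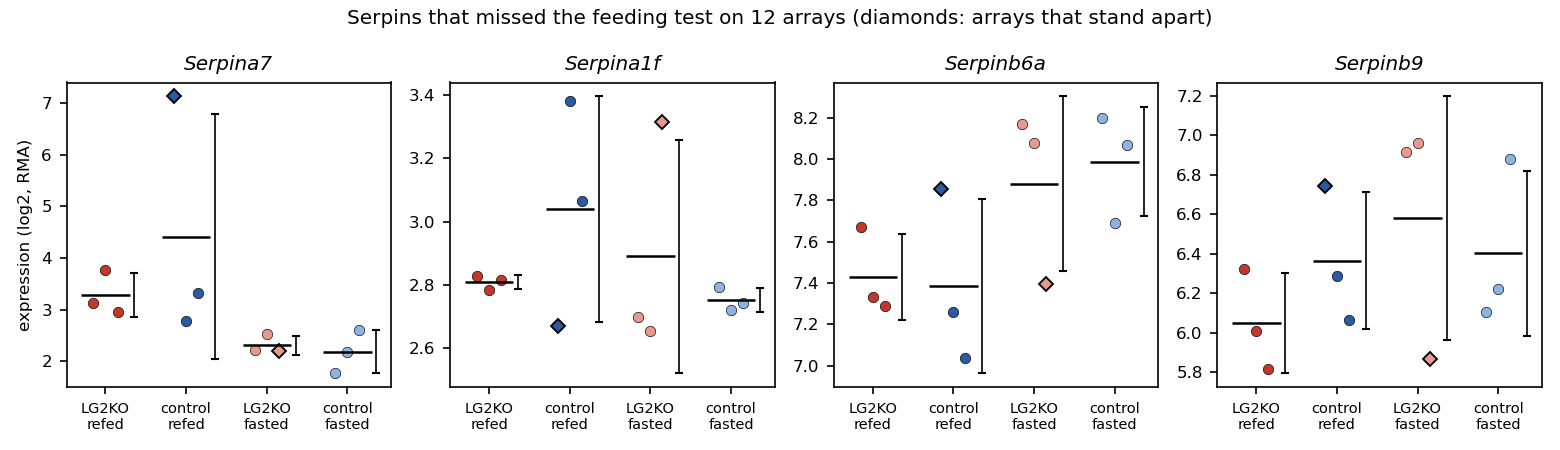
Expression (log2, RMA) of 4 serpins. Averaged over genotype they missed the feeding test on 12 arrays and passed it without the arrays that stand apart, drawn as diamonds. Points are arrays, horizontal lines group means and bars 1 SD (n = 3), with an axis per panel. Control refed replicate 1 reads 7.13 for Serpina7, and LG2KO fasted replicate 3 is the lowest fasted array for Serpinb6a and Serpinb9.

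Serpinb1a, an inhibitor of neutrophil elastase and cathepsin G, read 5.43, 4.66 and 4.46 in fasted LG2KO livers, against 4.20, 4.06 and 4.20 in fasted control livers. The groups did not overlap, and the difference of 0.69 ± 0.22 did not pass (adjusted p = 0.445). The second, dimmer probe set of Serpinb1a gave 0.08 ± 0.12 for the same difference. The other 15 clade B genes had group means that spanned at most 0.24. Many of them, such as Serpinb2, Serpinb5 and Serpinb7, are known from macrophages or epithelia, and these 3 averaged 2.46, 4.02 and 2.66 over the 12 arrays.

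Genotype gave 1 call among the serpins in its 3 comparisons. No serpin passed for LG2KO against control in refed livers (limma, 4 at an unadjusted p below 0.05) or in fasted livers (3), beside 0.379% of all genes in refed livers (0.291% higher and 0.0879% lower) and 0.396% in fasted livers (0.308% higher and 0.0879% lower). The median LG2KO minus control difference was 0.01 in refed livers and -0.005 in fasted livers over the 40 serpins, and 0.02 and -0.004 over all genes. Averaged over feeding, Serpina3n alone passed, which is 2.5% of the serpins beside 1.02% of all genes (0.737% higher and 0.28% lower). In the interaction 0 serpins passed, with 1 at an unadjusted p below 0.05, beside 0.0055% of all genes.

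**Figure D5:**
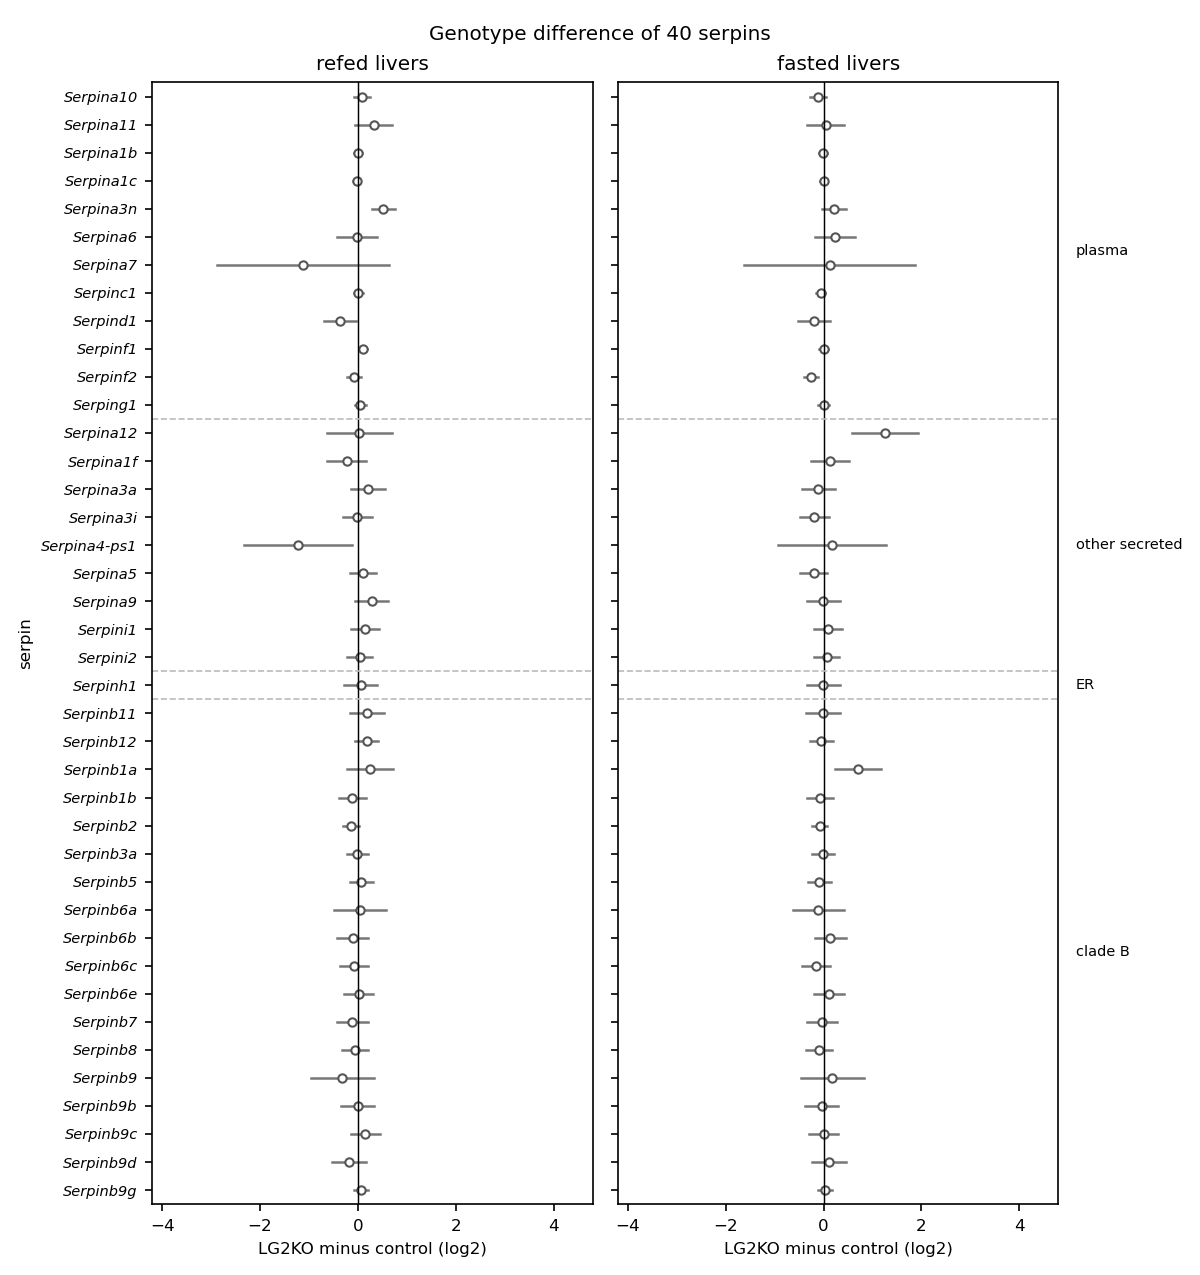
LG2KO minus control differences (log2, x axis) of the 40 serpins (rows, grouped by class) in refed livers at left and fasted livers at right. Points are limma estimates from 3 arrays a group and lines are 95% confidence intervals, with no point filled because none passed. The widest intervals are those of Serpina7 and Serpina4-ps1, and Serpina12 stands at 1.26 in fasted livers.

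The plasma serpins were set beside the rest of the family. For feeding averaged over genotype 1 of 12 plasma serpins rose and 1 fell, and 4 of the other 28 rose, beside 7.86% of all genes that rose and 5.77% that fell. The median refed minus fasted difference was 0.01 for the plasma serpins, -0.02 for the rest and -0.005 for all genes. Median sizes of that difference, regardless of sign, were 0.07, 0.08 and 0.10. The genotype difference averaged over feeding had a median of -0.01 in the plasma serpins and in the rest, beside 0.01 in all genes. The classes differed in brightness. All plasma serpins but Serpina7 had means above the median gene. Of the rest only Serpina12, Serpina4-ps1, Serpinb6a, Serpinb6e, Serpinb9 and Serpinh1 did. RMA compresses differences of dim probe sets, so these medians cannot show whether the classes responded alike.

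The targets of the plasma serpins and a relative outside the symbol rule were read from lists made by role. Of 10 coagulation proteases averaged over genotype, Habp2, a protease of plasma that activates factor VII, rose with refeeding by 0.36 ± 0.06, while F7, F12 and Proc, which encode factors VII and XII and protein C, fell by 0.19 ± 0.05, 0.14 ± 0.04 and 0.13 ± 0.03. Hgfac, the activator of hepatocyte growth factor, rose in LG2KO livers averaged over feeding by 0.25 ± 0.05, beside 0.737% of all genes that rose. None of the 3 fibrinolysis proteases Plg, Plat and Plau passed in any comparison. The median refed minus fasted difference of the coagulation proteases was -0.09, beside -0.005 for all genes. Of 4 complement proteases, C1ra, a target of C1 inhibitor, fell with refeeding by 0.24 ± 0.06 averaged over genotype. In the same comparison 7.86% of all genes rose and 5.77% fell, and lists this short cannot show a share apart from that background.

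Of 10 leukocyte and lysosomal proteases, the cathepsin Ctsl fell with refeeding by 0.49 ± 0.09 averaged over genotype. Prtn3, a neutrophil protease, rose with refeeding by 3.13 ± 0.84 in LG2KO livers (adjusted p = 0.043), where 4.66% of all genes rose. In control livers the Prtn3 difference was 0.38 ± 0.84 (adjusted p = 0.91), and the interaction of 2.75 did not pass (adjusted p = 0.99). Elane and Ctsg, of the same list, differed with refeeding in LG2KO livers by 0.22 ± 0.21 and 0.05 ± 0.14 and did not pass. Agt, the angiotensinogen gene, is a non-inhibitory member of the family under another name. It averaged 12.61 ± 0.05 in refed LG2KO livers, 12.58 ± 0.10 in refed control livers, 12.55 ± 0.04 in fasted LG2KO livers and 12.64 ± 0.08 in fasted control livers (SD, n = 3 each), and it passed in no comparison. Neither did any of 5 binding partners and receptors of serpins or their ligands, Vtn, Lrp1, Thbd, Nr3c1 and Ttr.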

How the data were processed

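Liver RNA of 12 pools was measured on Affymetrix arrays. Each deposited value is on the log2 scale, for 1 probe set on 1 array, and the authors made it with RMA per the submitters' processing notes. RMA corrects background, gives the arrays a common distribution, which can hide a global shift, and compresses differences of dim probe sets. No source used here names the software or a build. Symbols came from the platform annotation, which gave 34958 of 45101 probe sets 1 symbol, 932 several and 9211 none. All 40 serpin symbols matched RefSeq, GRCm38.p6, by Entrez number.

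Groups followed the sample titles. Tests used limma 3.58.1 under R 4.3.3 (1 mean per group, all 12 arrays, 8 residual degrees of freedom, eBayes with an intensity trend), two-sided, with Benjamini-Hochberg adjustment over 18194 genes within each of 7 comparisons. An adjusted p below 0.05 counts as passing. No filter on dim genes was used, and 17 of the 40 serpins had a mean above the median gene. Errors of differences are standard errors. The labels speak of pools, so p-values measure the spread between pools, and 3 pools a group limit the precision. Replicate numbers were not treated as pairs in the main fit. Of 18 same-number pairs 5 correlated above 0.1, and the correlations ran from -0.42 to 0.71. The highest, 0.71 each, were between control refed and LG2KO fasted in replicates 1 and 3. The fit was tested on simulated data.

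All serpins matching the symbol rule could be named, with fuller values for those that passed, the plasma class, Serpinh1, Serpina12, Serpini2, Serpinb1a, Serpinb6a and Serpinb9. From the protease and partner lists, genes that passed and Agt are given, with Elane and Ctsg beside Prtn3. The members and lists were chosen with earlier results of these data known. Alternatives covered the variance prior, array weights, quantile normalization, a filter on dim genes, averaged probe sets, the replicate block, fits of the compared groups alone, and left-out arrays. A fit over all 45101 probe sets was added after seeing the data. Plots used matplotlib 3.10.9 (Python 3.11.15).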

Additional observations from a re-analysis of the deposited data

How the results depend on the processing

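Of the 16 calls of a serpin in a comparison, 13 held under every alternative that could be run, which were Serpina9, Serpina10 and Serpinh1 in each feeding comparison, Serpina3n for feeding in control livers and averaged, and Serpina12 and Serpina4-ps1 averaged over genotype. No direction reversed. Serpina12 in control livers was lost when only these groups were fitted (1.57, adjusted p = 0.052), and the losses of Serpina4-ps1 and of Serpina3n by genotype are given above. Dim genes below the median, Serpina9 among them, have no value under that filter.

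With array weights 1 serpin passed for genotype in refed livers (Serpina3n), beside 180 of all 18194 genes, and 2 in fasted livers (Serpina12 and Serpinf2), beside 203. For genotype averaged over feeding 2 passed, beside 443, for feeding in LG2KO livers 5, beside 3578, and averaged over genotype 11, beside 4707. Without the arrays that stand apart these were 6 for feeding in LG2KO livers, 10 for feeding averaged over genotype and 0 for genotype averaged over feeding. That last count was also 0 without the intensity trend, with quantile normalization and with averaged probe sets. With the replicate block 1 serpin (Serpina3n) passed for genotype in refed livers, Serpinb6a was added for feeding averaged over genotype (7), and no other call changed. That feeding count was also 7 with quantile normalization, which added Serpinb6a. It was 7 of 17 tested with the filter on dim genes, which added Serpinb6a and Serpinf1. The shares of all genes under the block, quantile normalization and the filter are not given here, so these counts cannot be set against the background. Leaving out single arrays gave 0 to 1 for genotype in fasted livers and 0 to 1 for genotype averaged over feeding. The cause of these changes was not tested. Background on the arrays is not known, so differences of dim serpins may be understated.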

Other observations

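Probe sets that the annotation assigns to several serpins stayed out of the tests by gene. The probe set shared by Serpina1d and Serpina1a read 13.58, 13.58 and 13.60 in refed LG2KO livers, 13.59, 13.53 and 13.67 in refed control livers, 13.53, 13.61 and 13.68 in fasted LG2KO livers, and 13.79, 13.56 and 13.53 in fasted control livers. That of Serpina1e, Serpina1c and Serpina1b read between 11.26 and 12.25 over the 12 arrays, a wider range than the 0.07 of the Serpina1c probe set. In the fit over all probe sets, added after seeing the data, their feeding differences averaged over genotype were -0.02 (adjusted p = 0.89) and -0.18 (adjusted p = 0.47). The probe set shared by Serpinb9h, Serpinb9g, Serpinb9e and Serpinb9f read between 3.61 and 4.09.

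The other probe sets of Serpina4-ps1 gave refeeding differences in control livers of 2.40 ± 0.51 (adjusted p = 0.017 over all probe sets) and 2.11 ± 0.62 (adjusted p = 0.095). Those in LG2KO livers were 1.03 ± 0.51 and 0.65 ± 0.62. The second probe set of Serpinf1 gave -0.19 ± 0.06 in control livers (adjusted p = 0.12), beside -0.13 ± 0.04 for the first.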
